A study of Arabidopsis thaliana with 15 samples.

Results

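The comparison set pollen tubes that had grown through a stigma and style (SIV PT) against dry, ungerminated pollen of Arabidopsis thaliana on Affymetrix ATH1 arrays, and asked how the transcripts stored in the grain differ from those of a tube after its passage through the pistil. The members were the arrays whose titles name SIV PT (3) or dry pollen (4), so 7 of the 15 arrays in the series. For SIV PT, pistils of the male-sterile line ms1 in the Landsberg background were pollinated with Columbia (Col-0) pollen and cut. The tubes emerged from the cut style onto solid growth medium, and the tube bundles of many pistils were pooled for each RNA. The labels give 3 h in the pistil and 5 h on solid medium, whereas the protocol gives harvest 3 h after emergence. Dry pollen was collected by vacuum from open Col-0 flowers without contact with medium or pistil. Labelling started from 2 µg of RNA in SIV PT and 5 µg in dry pollen, so input and condition cannot be told apart. The other 8 arrays were of Col-0 pollen kept in liquid growth medium for 0.5 h (0.5 h PT) or 4 h (4 h PT), 4 arrays each. The labels call the replicates biological and say no more, so p-values measure the spread between these RNA samples.

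A pollen grain is released with a store of transcripts and proteins that carry it through hydration and germination. Its large vegetative cell then grows as a tube by adding membrane and wall material at the tip, while the sperm cells travel inside. Growth through the style brings sugars, ions and signals from the female tissue, and the tube secretes enzymes, wall proteins and peptides into its path. The endoplasmic reticulum (ER), where secreted proteins fold, transporters at the plasma membrane, the cytoskeleton and the pectin of the tube wall are the parts of the cell that the gene lists below follow.

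All values are array signals on a linear scale. A change is the difference SIV PT minus dry pollen in log2(signal + 64), fitted with limma over all 15 arrays, and a probe set counted as changed where B, the log odds of a change, exceeded 3 and the fold was 3 or more. The adjusted p printed with a gene is limma's, by Benjamini-Hochberg over 22746 probe sets. The offset of 64 makes folds smaller than ratios of the signals where a signal is low. Pearson's r between arrays over all probe sets was 0.961 to 0.967 within SIV PT, 0.944 to 0.967 within dry pollen and 0.811 to 0.84 between them. Signals along control transcripts also differed between the conditions for some pairs of probe sets. The ratio of the 3' to the 5' control probe set measures how far RNA or its labelled copy is shortened. It cannot tell the RNA from its labelling. For GAPDH the ratio was 6.59 to 9.72 on SIV PT arrays and 1.40 to 2.06 on dry pollen arrays. A second GAPDH pair gave 1.08 to 1.37 in SIV PT and 0.563 to 0.911 in dry pollen. A second ubiquitin pair gave 1.43 to 1.61 in SIV PT and 0.808 to 1.02 in dry pollen, whereas the first ubiquitin pair overlapped, at 3.34 to 4.05 in SIV PT and 3.42 to 3.68 in dry pollen. For the hybridization control bioC, which does not come from the samples, the ratio overlapped too, at 1.22 to 1.27 with SIV PT and 1.15 to 1.49 with dry pollen. With 3 against 4 arrays an exact two-sided permutation test over 35 splits cannot go below p = 0.0571, which is what both GAPDH pairs and the second ubiquitin pair reached. The part of this difference, and of the RNA input, in the results below was not tested.

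On the deposited scaling, SIV PT differed from dry pollen through transcripts at low signals in the grain and a decline of some strong ones. Of 22746 probe sets, 929 (4.08%) rose and 642 (2.82%) fell in SIV PT, 6.91% in either direction, and the median difference over all probe sets was −0.06. Rises were the larger changes: 108 rises and 10 falls reached a log2 difference of at least 5, and the median was 2.74 among the rises and −2.27 among the falls. The rising probe sets had a median mean signal of 2004 in SIV PT, against 162 in dry pollen, where 594 of the 929 lay under a log2 signal of 8 and 270 under a signal of 64. The falling ones had a median of 1159 in SIV PT, against 6885 in dry pollen, and 142 of the 642 lay under a log2 signal of 8 in SIV PT. Together the rising probe sets made up 18.1 to 19.8% of the summed signal on SIV PT arrays and 1.16 to 1.32% on dry pollen arrays. The falling ones made up 8.0 to 9.75% on SIV PT arrays and 33.3 to 33.9% on dry pollen arrays. These medians and shares describe probe sets chosen by the same arrays and are not a separate test. They are also those of the deposited scaling. After quantile normalization 758 probe sets rose and 724 fell. That scaling moved the difference of the strong grain transcript PLIM2a from −2.40 to −1.61 and of the weaker CHX14 from −2.69 to −3.07.

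**Figure D1:**
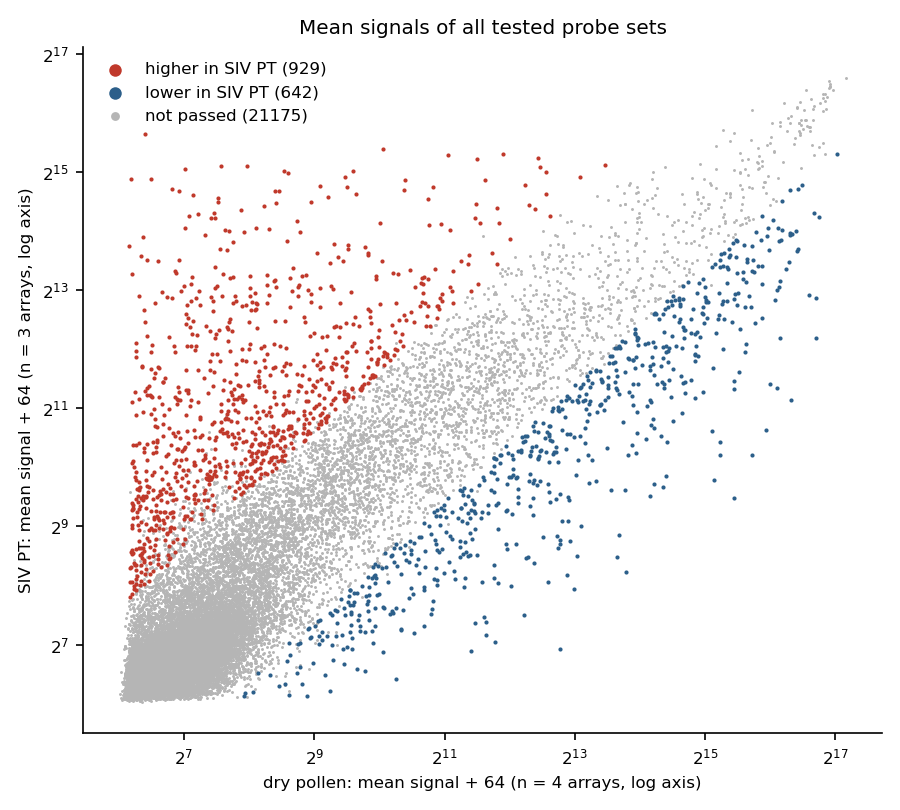
Mean signal plus 64 of each tested probe set in SIV PT (y axis, 3 arrays) and dry pollen (x axis, 4 arrays), both axes logarithmic, with the 929 rising probe sets in red, the 642 falling ones in blue and the rest in grey. Many rising probe sets lie at the left edge, near the offset in dry pollen, whereas falling ones start from the middle and the top of the dry pollen range.

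A probe set was called expressed in a condition where its mean log2 signal was at least 8. By that limit 4350 probe sets were expressed in both, 1624 in SIV PT and not in dry pollen, and 591 in dry pollen and not in SIV PT. Of the 1624, 574 rose, and of the 591, 141 fell. Among the 4350 shared probe sets, 330 rose and 496 fell. The strongest 100 probe sets of each condition shared 61. Of the 100 strongest in dry pollen, 35 fell and none rose in SIV PT, and of the 100 strongest in SIV PT, 14 rose and 1 fell. Only 4 of those 100 had a mean under a log2 signal of 8 in dry pollen. Over all probe sets 4.08% rose and 2.82% fell. The sets of 1624, 591 and 100 probe sets were picked by the same signals that gave the calls. Each therefore leans toward its own condition by construction, and these counts are not a test. They also rest on the deposited scaling. The 100 strongest of dry pollen still held 18.8 to 20.2% of the summed signal in SIV PT, against 27.9 to 30.3% in dry pollen itself. The 100 strongest of SIV PT held 23.3 to 24.9% in SIV PT and 22.4 to 24.1% in dry pollen, with overlap.

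The largest rises took transcripts with low signals in the grain to strong signals in SIV PT. On the 15 probe sets with the largest rises and 1 named gene, single SIV PT arrays read 8169 to 39642 and single dry pollen arrays 5.63 to 230. SUC9, a sucrose-proton symporter, read 29250, 31023 and 30143 in SIV PT, against 10.3, 62.2, 18.6 and 14.8 in dry pollen. Its log2 difference of 8.42 (SE 0.52, adjusted p = 8.36e-09) was the largest among probe sets with 1 named gene. The hexose transporter AT3G19940 (STP10) read 26417, 29292 and 24526 in SIV PT, against 22.9, 5.73, 7.90 and 160 in dry pollen, a difference of 8.07. A pectate lyase gene, AT5G09280, whose product would cut pectin chains, read 34344, 36781 and 30699 in SIV PT, against 24.8, 102, 95.9 and 36.5 in dry pollen, a difference of 8.09. Each of these 3 genes read at most 160 on every dry pollen array and at least 24526 on every SIV PT array. A pair of genes for subtilases, which are secreted serine proteases, rose by 7.88 (AT4G21323) and 7.08 (AT1G66220). AT4G26830, a glycosyl hydrolase gene, had 35147 ± 5796 in SIV PT and 186 ± 51.0 in dry pollen (mean signal ± SD, n = 3 and 4 arrays, as for all means below), and AT3G19690, of the pathogenesis-related proteins, had 23992 ± 968 in SIV PT and 121 ± 62.1 in dry pollen. KLCR2, a kinesin light chain-related gene, rose by 7.53 and the cation/proton exchanger CHX9 by 6.95. The other members were BIP3 and the small heat shock protein gene AT1G54050, given below, the late embryogenesis abundant gene LEA3 (7.17), the VQ motif gene AT5G08480 (7.06), AT1G29770 of the NLI interacting factor family (7.54) and AT4G02160 of unknown function (7.0). Probe sets that match several genes, or have no gene name in the tables used here, held 4 of the 15 largest differences upward and 4 of the 15 downward, and are not named.

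The largest falls were in strong transcripts of the grain, which the same ranking and offset largely fix. On the corresponding 15 probe sets single SIV PT arrays read 6.02 to 3126 and single dry pollen arrays 3228 to 89474, and mean signals in SIV PT were at most 4.04% of those in dry pollen. AT5G27980, described as like embryonic abundant proteins of seeds, read 679, 731 and 533 in SIV PT, against 36139, 43853, 50931 and 47735 in dry pollen, and its log2 difference of −5.97 (SE 0.27, adjusted p = 9.62e-10) was the largest fall. EXPA24, an expansin that would loosen walls, read 88.7, 6.02 and 77.5 in SIV PT, against 4483, 5740, 8309 and 9173 in dry pollen, a difference of −5.87. The dry pollen values of both genes lay well above all SIV PT values, and EXPA24 ended at 6.02 to 88.7. PIRL6, a Ras group-related leucine-rich repeat protein of plants, read 79.3, 201 and 263 in SIV PT, against 7599, 8674, 8294 and 7746 in dry pollen, a difference of −5.13. PP2C74, a protein phosphatase of the 2C type, differed by −4.78, the GDSL lipase gene AT2G19010 by −4.80 and the peptide transporter-like gene AT5G28470 by −4.77. A trio of pectin methylesterase genes and the EF-hand calcium-binding gene AT1G73630 were also among the 15 and are given with their lists. The last 5 members have no description in the tables used here. Of these, AT3G28980 had 2194 ± 263 in SIV PT and 82037 ± 6950 in dry pollen and AT4G00350 had 1119 ± 28.3 in SIV PT and 38352 ± 1828 in dry pollen. AT1G63060 differed by −5.55, AT3G10460 by −5.16 and AT3G06150 by −4.80. All 30 largest changes kept their call under each of the 16 alternatives, including every omission of 1 array. They were picked for the size of their differences, so this was likely from the start and is no separate support.

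**Figure D2:**
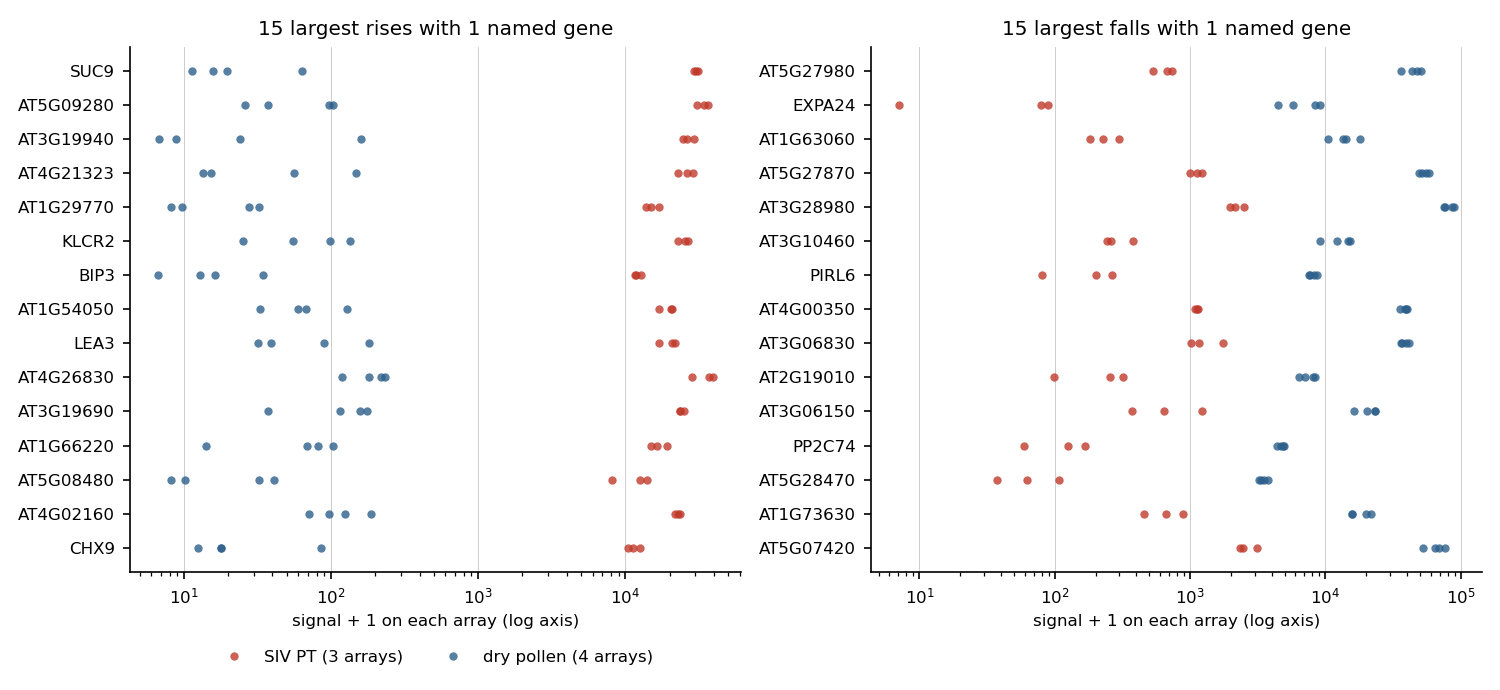
Signal plus 1 on every array (log axis) for the 15 largest rises (left) and the 15 largest falls (right) with 1 named gene, SIV PT in red and dry pollen in blue, each ordered by the size of the log2 difference. No gene has overlapping groups, which the choice of the largest differences makes likely. The rises cluster tightly in SIV PT, at 8169 to 39642, and scatter at low signals in dry pollen.

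Named genes are not an even sample. A gene name was found for 775 of the 929 rises (83.4%) and 445 of the 642 falls (69.3%), against 67.3% of all probe sets, because part of the names came from the study's tables of changed genes. Genes outside the 15 largest changes each way and the leading members of each list were named after their values had been seen. In the comparisons below these are BZIP60, IRE1-1, HSFA2, CHX27, AHA9, PROT1, AT5G07430, AT3G17060, AT3G07820, CSLD1, ANX1, PRK1, AT1G24620, XIE and TUA1. The gene lists that follow hold 515 loci, of which 253 probe sets could be joined to a gene. Of these probe sets 77 rose and 25 fell, so each list is read beside 4.08% rises and 2.82% falls over all probe sets. The lists were chosen with earlier results of these data known. An excess over those shares is therefore partly built in and is not a test. The median changed sign under at least 1 alternative for the lists of tapetum, wall, receptor, ROP and lipid signalling, calcium, exocyst and vegetative cell genes. The members of a list share both the arrays and, within families, similar sequence, and probe sets of close relatives such as SUC8 and SUC9 may pick up each other's transcript.

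Several chaperones of the ER rose, and none fell. Of 18 measured probe sets on the list of ER folding genes (26 loci listed), 11 rose, none fell and 7 did not pass, with a median difference of 2.19 against −0.06 over all probe sets. BIP3, an ER chaperone of the HSP70 class, read 12774, 11863 and 11574 in SIV PT, against 15.2, 5.63, 33.6 and 11.8 in dry pollen, and rose by 7.25 (SE 0.34, adjusted p = 1.29e-09). CNX1, the lectin chaperone calnexin, read 9785, 9243 and 9666 in SIV PT, against 216, 184, 151 and 225 in dry pollen, and rose by 5.23. In both genes the replicates of a condition lay close together and the conditions far apart. The protein disulfide isomerases PDIL1-2 and PDIL1-1, which form disulfide bonds in secreted proteins, rose by 5.03 and 4.79. SDF2, a quality control protein of the ER, had 6457 ± 222 in SIV PT and 213 ± 107 in dry pollen, and CRT1a, a calreticulin, had 3218 ± 669 in SIV PT and 265 ± 38.3 in dry pollen. Regulators of ER folding genes are also on the list. BZIP60, a transcription factor whose mRNA is spliced when unfolded protein accumulates, had 9222 ± 548 in SIV PT and 1660 ± 214 in dry pollen, a rise of 2.44. IRE1-1, the kinase and nuclease that splices it, rose by 1.77, a call that ended after quantile normalization, at 1.35, with the larger alternative offset and in a fit of the 7 arrays alone. At the other end of the list BZIP17, a related factor, read 76.7, 9.62 and 18.5 in SIV PT, against 94.2, 29.0, 99.2 and 189 in dry pollen, with overlapping groups and a difference of −0.73 (adjusted p = 0.182). BIP3 is among the genes that the study picked from these arrays, so its place on the list adds nothing independent.

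The gate into the ER and the coat of vesicles that leave it changed in a few members. Of 14 probe sets on the list of translocon and COPII genes, 3 rose, none fell and 11 did not pass, with a median of 0.30. SARA1A, a small GTPase of the Sar1 class that starts a COPII coat, read 5367, 5477 and 6056 in SIV PT, against 321, 197, 252 and 316 in dry pollen, a rise of 4.10. SAR1B, of the same class, had 4107 ± 479 in SIV PT and 876 ± 43.6 in dry pollen, a rise of 2.14, and SEC31A (AT1G18830), of the outer coat, rose by 2.56. At the low end, one of the 2 probe sets of AT3G48570, a gene for the gamma subunit of the Sec61 channel, had 2461 ± 93.5 in SIV PT and 5088 ± 200 in dry pollen, a difference of −1.03 that is under 3-fold.

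The heat shock list holds chaperones of the cytosol and of organelles and 2 regulators, HSFA2 and MBF1C. Of 15 probe sets, 12 rose, none fell and 3 did not pass, with a median difference of 5.09. This was the highest median among the lists, but with an offset of 16 sugar transport was higher, at 5.46 against 5.42. Of the 12 rises, 1 of a weak transcript did not pass in 9 of 16 alternatives. The list had 11 rises without SIV PT replicate 1, 2 or 3 or dry pollen replicate 1, 2 or 3. Without dry pollen replicate 4 it had 13. HSP90.1, an inducible cytosolic chaperone, read 21328, 16728 and 19144 in SIV PT, against 110, 91.7, 132 and 119 in dry pollen, and rose by 6.75 (SE 0.50, adjusted p = 5.71e-08). HSP101, which pulls aggregated proteins apart, read 5376, 3219 and 4387 in SIV PT, against 9.44, 7.84, 16.3 and 16.7 in dry pollen, and rose by 5.81. Dry pollen held both at low signals. MBF1C, a transcriptional coactivator of the heat response, rose by 6.19, the chaperone Hsp70b by 5.47, and the small heat shock proteins HSP17.6II and HSP17.4, which bind unfolding proteins, by 5.46 and 5.30. AT1G54050, the class III small heat shock protein gene among the largest rises, had 19375 ± 2033 in SIV PT and 71.1 ± 40.1 in dry pollen. HSFA2, a heat shock transcription factor, was the most scattered of the risers in SIV PT, at 1654, 878 and 498, against 9.21, 7.62, 12.5 and 9.67 in dry pollen, a rise of 3.72. The lowest member, AT5G37670, read 7.54, 30.5 and 70.4 in SIV PT, against 44.2, 130, 40.7 and 11 in dry pollen, with overlapping groups.

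**Figure D3:**
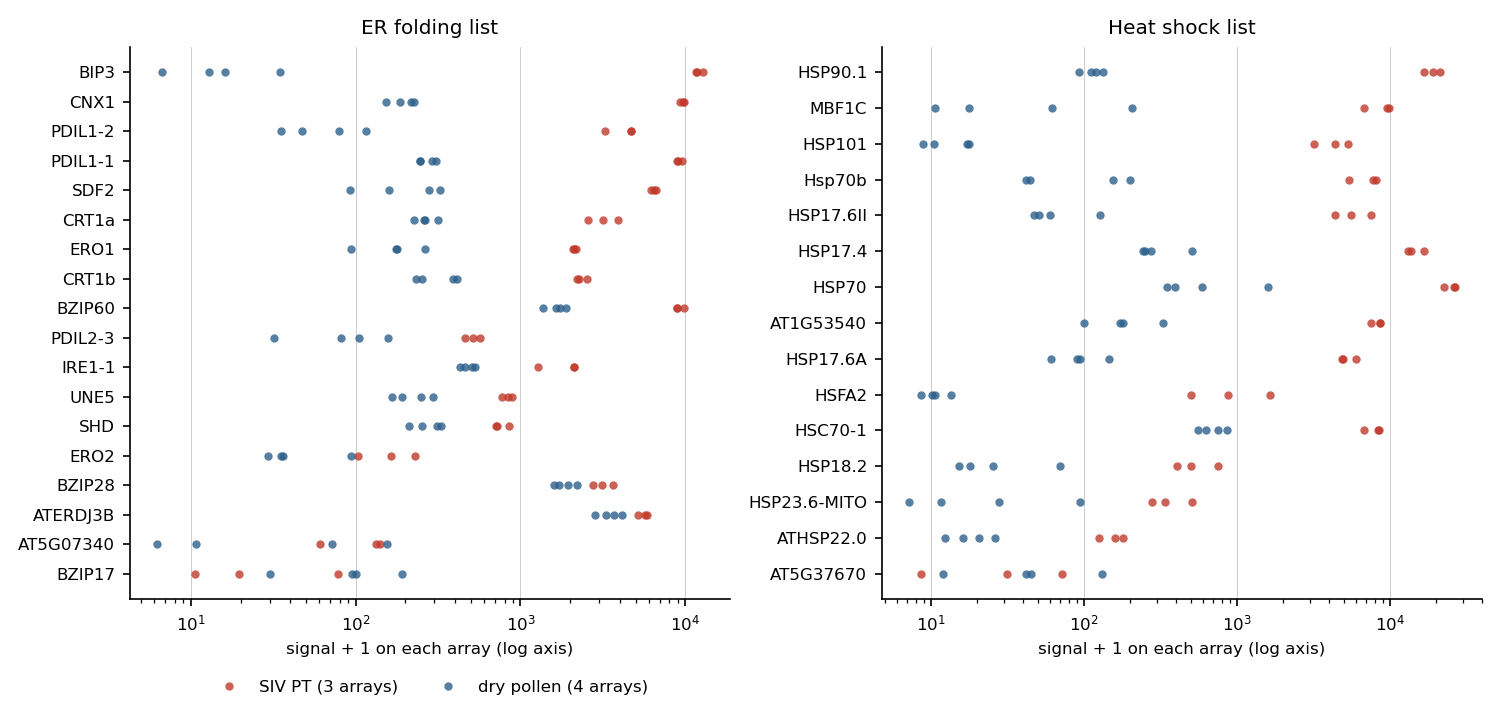
Signal plus 1 on every array (log axis) for all measured members of the ER folding list (left) and the heat shock list (right), SIV PT in red and dry pollen in blue, in order of the log2 difference. Of 18 ER folding probe sets 11 rose and of 15 heat shock probe sets 12 rose. Groups overlap only toward the bottom of each panel.

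Sugar transporters rose or did not pass. Of 12 probe sets, 7 rose, none fell and 5 did not pass, with a median of 4.25. Besides SUC9 and STP10, INT4, a symporter for myo-inositol, read 32344, 36942 and 29300 in SIV PT, against 149, 397, 421 and 261 in dry pollen, and rose by 6.54 (SE 0.36, adjusted p = 3.36e-09). STP4, a monosaccharide transporter, had 25956 ± 2554 in SIV PT and 275 ± 18.8 in dry pollen, a rise of 6.26. AT5G26250 (STP8) rose by 5.46 and SUC8 by 4.82. SWEET5, a facilitator of sugar efflux, lay at the other end with 702 ± 96.8 in SIV PT and 1829 ± 308 in dry pollen, a difference of −1.30 that did not pass, although it passed after quantile normalization, at −1.76.

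CHX genes, which encode exchangers of cations for protons on internal and surface membranes, moved both ways. Of 16 probe sets, 8 rose, 2 fell and 6 did not pass, with a median of 2.73. CHX9 read 10513, 12591 and 11242 in SIV PT, against 16.9, 16.8, 11.5 and 85.0 in dry pollen. CHX26 rose by 5.33, CHX12 by 5.23, CHX21 by 5.21, CHX3 by 4.92 and CHX4 by 4.81, with means of at most 110 in dry pollen. CHX14 read 529, 521 and 587 in SIV PT, against 3752, 4212, 3653 and 3856 in dry pollen, and fell by 2.69. CHX27, at 597 ± 290 in SIV PT and 3194 ± 348 in dry pollen, fell by 2.38. CHX14 and CHX27 were both well above the floor in the grain. Among proton pumps and potassium channels only 3 of 8 listed genes were measured. AHA6, a plasma membrane proton pump, had 10449 ± 1429 in SIV PT and 1792 ± 224 in dry pollen, a rise of 2.50. SPIK, the inward potassium channel of pollen, had 5755 ± 634 in SIV PT and 24994 ± 777 in dry pollen, a fall of 2.11. AHA9, another pump, differed by 1.45 and did not pass, but passed without dry pollen replicate 2, at 1.71. Of 5 measured metal transport probe sets, 2 (YSL7 and ZIP11) rose and 3 did not pass, and none of 9 water channel genes could be joined to a probe set.

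Transporters of nitrogen compounds also moved in both directions, with 4 rises, 3 falls and 3 members that did not pass among 10 probe sets (median 0.86). AT1G67640, described as a transporter specific for lysine and histidine, read 42078, 44776 and 41411 in SIV PT, against 1372, 888, 926 and 815 in dry pollen, and rose by 5.36 (SE 0.28, adjusted p = 2.16e-09). The ammonium transporter AMT1;4 had 1287 ± 202 in SIV PT and 22.4 ± 14.7 in dry pollen, a rise of 3.97, and PTR5, a dipeptide transporter, rose by 2.76. A pair of proline transporters took opposite courses. PROT2 read 858, 763 and 1150 in SIV PT, against 81.7, 40.1, 110 and 121 in dry pollen, a rise of 2.71. PROT1 read 6427, 6492 and 10638 in SIV PT, against 29512, 31678, 34244 and 25178 in dry pollen, a difference of −1.96 that no longer passed after quantile normalization, at −1.47. P5CR, the last enzyme of proline synthesis, fell by 2.1, but did not pass in a fit of the 7 arrays alone.

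**Figure D4:**
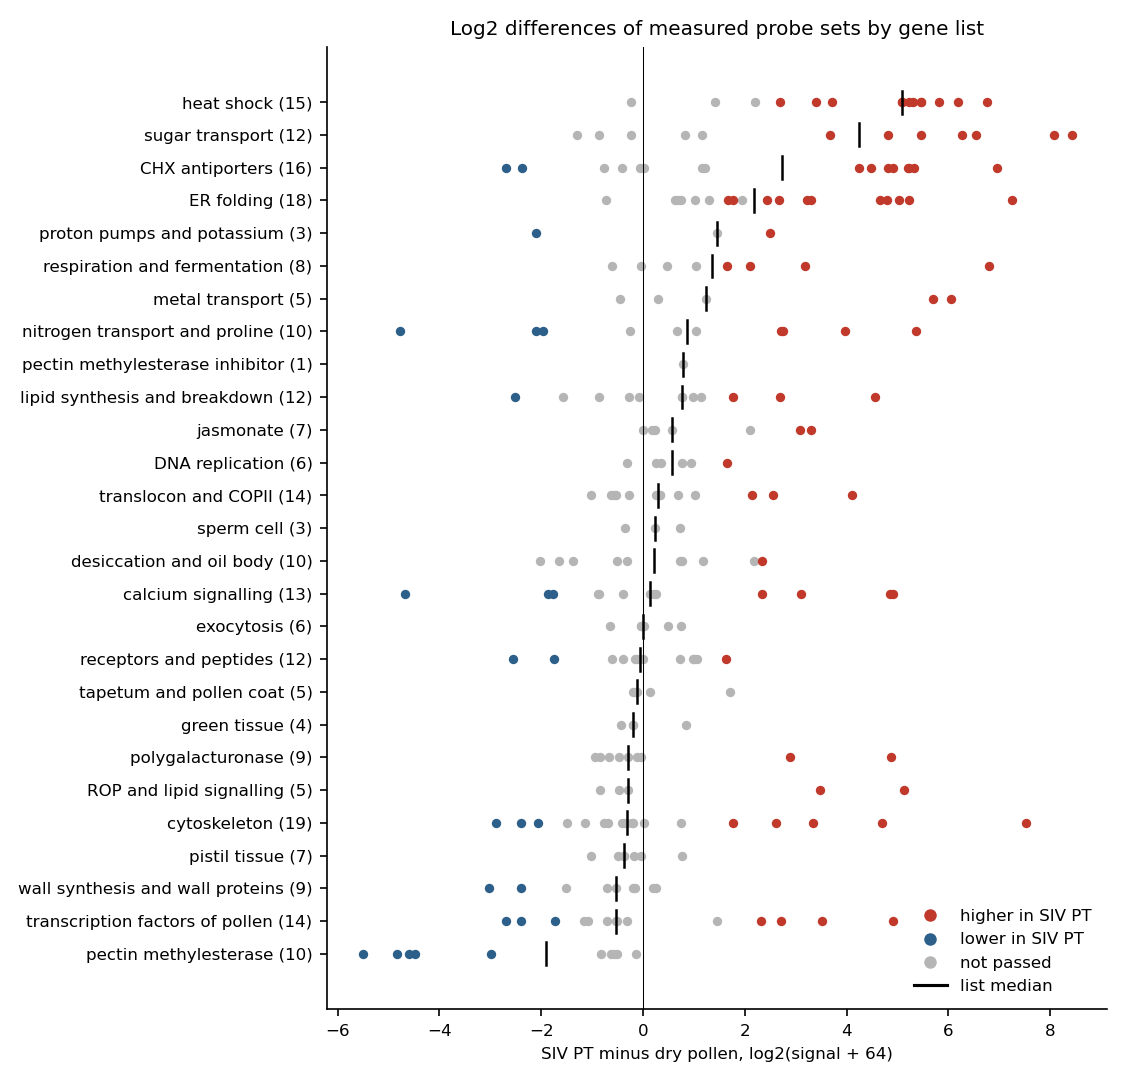
SIV PT minus dry pollen in log2(signal + 64) for each measured probe set of 27 gene lists, sorted by list median (black bars), with the number of probe sets in brackets. Red points rose, blue points fell and grey points did not pass. At this offset heat shock has the highest median (5.09, second to sugar transport with an offset of 16) and pectin methylesterase the lowest (−1.90), and several lists hold both rises and falls.

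Genes that act on pectin in the tube wall moved in both directions. Pectin methylesterases strip methyl groups from pectin, which lets it stiffen with calcium. Of 10 measured probe sets on their list (15 loci listed), none rose, 5 fell and 5 did not pass, with a median of −1.90. VGD1, VGDH1, VGDH2, PPME1 and AT5G07410 could not be joined to a probe set. AT5G27870 read 998, 1232 and 1123 in SIV PT, against 52065, 55558, 49182 and 58699 in dry pollen, and fell by 5.51 (SE 0.18, adjusted p = 5.61e-11). AT3G06830 read 1018, 1165 and 1758 in SIV PT, against 36326, 39226, 41180 and 36628 in dry pollen, and fell by 4.84. AT5G07420 fell by 4.59, AT4G15980 fell by 4.49 and AT4G33230 fell by 2.98. Among the measured members that did not pass, AT5G07430 and AT3G17060 stayed high. AT5G07430, next to AT5G07420 by its locus number, read 81832, 95702 and 67368 in SIV PT, against 117098, 111711, 111110 and 119846 in dry pollen, a difference of −0.51 (adjusted p = 0.0542) that became 0.05 after quantile normalization. AT3G17060, at 50492 ± 2191 in SIV PT and 89519 ± 1389 in dry pollen, differed by −0.83, under 3-fold. The inhibitor PMEI2 differed by 0.79 with overlapping groups. A pectin methylesterase gene outside the list, AT5G49180, chosen after its values had been seen, moved the other way and is given among the further observations. AT5G27870 and AT3G06830 are genes that the study picked from these arrays.

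Polygalacturonases, which cut pectin, included 2 rises, no falls and 7 members that did not pass among 9 probe sets (median −0.29). AT4G13760 read 3218, 4007 and 1310 in SIV PT, against 2.06, 35.9, 65.7 and 11.2 in dry pollen, and rose by 4.88. AT2G40310 read 803, 800 and 374 in SIV PT, against 12.1, 74.1, 27.4 and 13.3 in dry pollen, a rise of 2.89 that did not pass without SIV PT replicate 1 or without SIV PT replicate 2, at 2.73 each. AT3G07820, the strongest member, had 88811 ± 5911 in SIV PT and 123915 ± 8444 in dry pollen and differed by −0.48, or 0.05 after quantile normalization. Of 9 probe sets for other wall genes, 2 fell and 7 did not pass. Both fallers were pectate lyases, the class of AT5G09280, which is off this list and among the largest rises (8.09). AT5G15110 read 7554, 8592 and 10868 in SIV PT, against 71901, 70796, 73190 and 75596 in dry pollen, and fell by 3.02, and AT59 fell by 2.39. The cellulose synthase-like gene CSLD1 had 15752 ± 434 in SIV PT and 45255 ± 3231 in dry pollen, a difference of −1.52 just under 3-fold. The extensin-like gene LRX10 (AT2G15880) read 47823, 57440 and 50273 in SIV PT, against 49709, 52211, 48578 and 28247 in dry pollen, with overlapping groups. The median of the wall list was −0.53, but 0.24 after quantile normalization, so its direction depends on the scaling.

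Receptors and ROP signalling set the direction of tip growth. Of 12 probe sets for receptors and peptides, 1 rose, 2 fell and 9 did not pass, with a median of −0.05, or 0.92 after quantile normalization. The falls were the receptor kinases PRK2A, which fell by 2.55, and BUPS2 (AT2G21480), which fell by 1.75. The call of BUPS2 ended after quantile normalization, at −1.55. ANX1, a receptor kinase that keeps the tube from bursting early, read 24094, 22218 and 23856 in SIV PT, against 13642, 10824, 11207 and 10808 in dry pollen. Its groups did not overlap, but the difference of 1.01 is under 3-fold, and it passed only after quantile normalization, at 1.95. PRK1, a pollen receptor-like kinase, behaved alike, with 1.07 and 1.67 after quantile normalization. The only call upward, MIK2 (AT4G08850), was of a weak transcript with 207 ± 38.8 in SIV PT and 23.7 ± 14.9 in dry pollen. Its difference of 1.63 did not pass in 8 of 15 alternatives, among them those without SIV PT replicate 1 or 2 and dry pollen replicate 1 or 4, at 1.54 to 1.60, and that with the larger alternative offset, at 0.72. Of 5 probe sets for ROP and lipid signalling, 2 rose (ROPGEF13, an activator of ROP GTPases, by 5.12, and the phosphoinositide kinase PIPK10 by 3.48) and 3 did not pass. PIPK10 had 2202 ± 305 in SIV PT and 140 ± 37.2 in dry pollen. PIP5K5, a related kinase at the low end, had 5178 ± 817 in SIV PT and 9276 ± 532 in dry pollen, a difference of −0.84.

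Calcium genes split by member. Of 13 probe sets, 4 rose, 3 fell and 6 did not pass (median 0.13). AT2G17000, a mechanosensitive channel gene, read 2837, 2880 and 2062 in SIV PT, against 8.64, 45.0, 26.5 and 18 in dry pollen, and rose by 4.91 (SE 0.37, adjusted p = 6.49e-08). CML39, a calmodulin-like protein, had 7840 ± 1861 in SIV PT and 208 ± 54.3 in dry pollen, a rise of 4.86. CNGC7, a cyclic nucleotide-gated channel, rose by 3.10 and the kinase CPK25 by 2.34. AT1G73630 read 455, 663 and 887 in SIV PT, against 15773, 15794, 19827 and 21688 in dry pollen, and fell by 4.68. The kinase CPK14 fell by 1.86 and the EF-hand gene AT1G24620 by 1.76, and neither passed after quantile normalization, at −1.41 and −1.31.

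Cytoskeletal genes moved in both directions. Of 19 probe sets, 5 rose, 3 fell and 11 did not pass, with a median of −0.31. ACT2, an actin best known from vegetative tissues, read 18805, 18823 and 14698 in SIV PT, against 1502, 1777, 1897 and 1488 in dry pollen, and rose by 3.34 (SE 0.19, adjusted p = 4.16e-09). Its probe set may also bind transcripts of close actin relatives. AT5G55400, a fimbrin that would bundle actin filaments, had 12566 ± 1050 in SIV PT and 461 ± 225 in dry pollen, a rise of 4.69. MAP18, a microtubule-associated protein, rose by 2.61 and the myosin XIE by 1.77, or 1.57 after quantile normalization, where it did not pass. On the falling side, PRF5, a profilin of pollen, read 3950, 3943 and 9480 in SIV PT, against 32480, 39351, 41289 and 47110 in dry pollen, a fall of 2.89. PLIM2a, an actin-bundling protein, had 20142 ± 5552 in SIV PT and 104066 ± 6874 in dry pollen, a fall of 2.40. TUA1, the alpha-tubulin of pollen, fell by 2.07, a call that ended after quantile normalization at −1.23. None of 6 exocyst probe sets passed, and SEC10, a subunit of this complex that tethers vesicles to the membrane, had the largest difference, 0.75 (adjusted p = 0.00645).

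Transcription factors that pollen expresses moved in both directions: of 14 probe sets, 4 rose, 3 fell and 7 did not pass (median −0.53). MYB120, which acts in tubes before they burst in the ovule, read 6085, 6468 and 4712 in SIV PT, against 216, 164, 166 and 28.8 in dry pollen, and rose by 4.91 (SE 0.34, adjusted p = 2.45e-08). WRKY34, of the WRKY family, had 2329 ± 450 in SIV PT and 148 ± 51.1 in dry pollen, a rise of 3.51. MYB77 rose by 2.72, but did not pass without SIV PT replicate 1, 2 or 3 or without dry pollen replicate 1, 2 or 4, at 2.38 to 2.76. AGL94 rose by 2.32, but did not pass without SIV PT replicate 1 or 2 or without dry pollen replicate 1, 2 or 3, at 2.12 to 2.34, or with the larger alternative offset, at 1.26. Bzip18 (AT2G40620), a basic leucine zipper factor, read 1937, 2449 and 2466 in SIV PT, against 15906, 14652, 15488 and 14005 in dry pollen, and fell by 2.69. AGL18, a MADS-box factor, had 5071 ± 1222 in SIV PT and 26467 ± 1015 in dry pollen, a fall of 2.39.

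Respiratory and stress metabolism showed 4 rises, no falls and 4 members that did not pass among 8 probe sets (median 1.35). AOX1A, the alternative oxidase that passes electrons to oxygen without pumping protons, read 14718, 15665 and 16308 in SIV PT, against 65.5, 248, 45.0 and 24.0 in dry pollen, and rose by 6.80 (SE 0.46, adjusted p = 1.98e-08). PDC1 (AT4G33070), a pyruvate decarboxylase of fermentation, read 621, 548 and 662 in SIV PT, against 6.66, 8.03, 9.25 and 15.2 in dry pollen, a rise of 3.19. The NADH dehydrogenases NDB4 and NDB2, which bypass the first proton pump, rose by 2.1 and 1.65. NDB4 did not pass without SIV PT replicate 1, 2 or 3 or dry pollen replicate 1, 2 or 4, at 1.98 to 2.24, or with the larger alternative offset, at 1.03. NDB2 did not pass without SIV PT replicate 3 (1.47), with the larger alternative offset (1.38) or after quantile normalization (1.2). On the jasmonate list 2 of 7 probe sets rose, JAZ1 (a repressor of the pathway) by 3.31 and MYC2 (its transcription factor) by 3.09, and 5 did not pass.

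Lipid genes included both ends of oil metabolism. Of 12 probe sets, 3 rose, 1 fell and 8 did not pass (median 0.77). TAG1, the enzyme that completes triacylglycerol, read 2982, 2795 and 3686 in SIV PT, against 18775, 18338, 17821 and 17419 in dry pollen, and fell by 2.51 (SE 0.16, adjusted p = 1.15e-08). SDP1, a lipase that breaks triacylglycerol down, had 4045 ± 592 in SIV PT and 1147 ± 171 in dry pollen, and rose by 1.76. XPL1, a methyltransferase on the way to phosphatidylcholine, rose on both of its probe sets, by 4.56 and by 2.69, and the second did not pass without SIV PT replicate 1 (2.69) or 2 (2.61). Of 10 desiccation and oil body probe sets 1 rose and 9 did not pass (median 0.21). TIL, a lipocalin induced by temperature, had 1892 ± 67.2 in SIV PT and 329 ± 84.1 in dry pollen, a rise of 2.34. COR47, a dehydrin, read 98, 56.1 and 101 in SIV PT, against 318, 977, 588 and 448 in dry pollen, without overlap. Its difference of −2.03 did not pass by B, but passed without dry pollen replicate 1, at −2.25. Of 6 DNA replication probe sets only ORC2, of the origin recognition complex, rose, by 1.65, and it did not pass without dry pollen replicate 2 (1.52), with the larger alternative offset (1.38) or after quantile normalization (1.21).

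The labelled cell types were checked against marker lists. All 12 measured markers of the vegetative cell of pollen (20 listed) had a mean log2 signal of at least 8 in both conditions, and their summed signal was 316023 to 349847 on SIV PT arrays and 315981 to 395273 on dry pollen arrays. The overlap rests on dry pollen replicate 4 (315981), since the other 3 dry pollen arrays, at 383522 to 395273, lay above all SIV PT arrays. Of 14 sperm cell markers 3 were measured and none passed. MGH3, a sperm histone, read 5988, 6790 and 8157 in SIV PT, against 8418, 8713, 8969 and 9259 in dry pollen, and the tetraspanin TET12 had 453 ± 137 in SIV PT and 244 ± 47.0 in dry pollen, and TET11, of the same family, overlapped between the conditions. The summed signal of the sperm list was 7999 to 9504 in SIV PT and 9579 to 10619 in dry pollen. In pooled tubes fewer cells of a type and less RNA per cell cannot be told apart. Pistil tissue markers were at the floor: none of the 7 measured of 20 reached a log2 signal of 8 in either condition, none passed, and their summed signal reached at most 375 on a SIV PT array and 400 on a dry pollen array, with overlapping groups. SHI, a style and stigma regulator, read 6.29, 8.35 and 17.3 in SIV PT, against 134, 44.5, 135 and 59.2 in dry pollen. The 4 green tissue markers measured of 18 summed to 276 to 789 in SIV PT and 368 to 652 in dry pollen, and LHB1B1, a chlorophyll-binding protein gene, read 309, 49.0 and 40.6 in SIV PT, against 42.1, 14.6, 6.07 and 52.0 in dry pollen. Tapetum and pollen coat markers (5 measured of 22) summed to 279 to 490 in SIV PT and 72.9 to 208 in dry pollen without overlap. The one member above the limit was EXL5 (AT1G75920), an extracellular lipase, at 382, 418 and 194 in SIV PT, against 43.5, 109, 14.0 and 69.0 in dry pollen. Its difference of 1.70 did not pass by B.

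**Figure D5:**
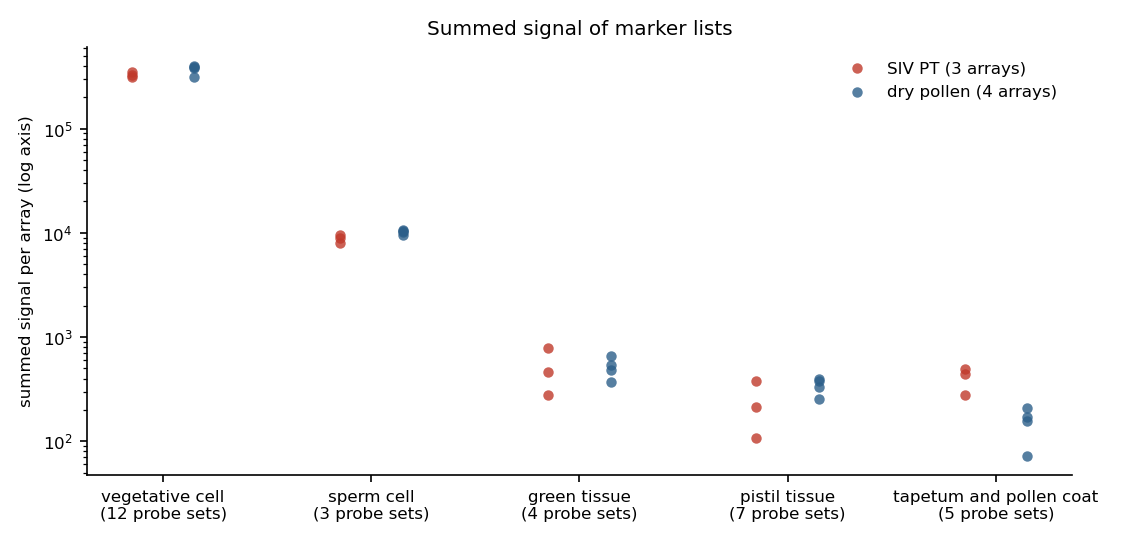
Summed signal of each marker list on every array (log axis), SIV PT in red left of dry pollen in blue. The vegetative cell sums lie at 316023 to 349847 in SIV PT and 315981 to 395273 in dry pollen, where replicate 4 is the lowest, and the pistil tissue sums at no more than 375 in SIV PT and 400 in dry pollen.

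The arrays of pollen in liquid medium place these changes. The study describes these samples as spun down whole. By its count a large minority of the grains had not germinated even after 4 h. The SIV PT bundles were instead cut off where they left the style, apart from the grains on the stigma. How far material of grains, rather than of tubes, sets the levels below was not tested. All comparisons with dry pollen share its 4 arrays, so the levels are given side by side without a test. For all 15 of the largest rises the mean signal in 4 h PT lay between those of SIV PT and dry pollen, at 0.522 to 53.3% of the SIV PT mean. BIP3 had a mean of 12070 in SIV PT, against 35.3 after 0.5 h and 63.0 after 4 h in medium and 16.6 in dry pollen. AT3G19690 had 23992 in SIV PT, against 534 after 0.5 h and 12784 after 4 h in medium and 121 in dry pollen. These 15 do not stand for all rises. CML39, a rise outside the 15, was highest after 4 h in medium. It had 7840 in SIV PT, against 3191 after 0.5 h and 14892 after 4 h in medium and 208 in dry pollen. The 15 largest falls stood at 48.3 to 95.9% of the dry pollen mean in 4 h PT, against at most 4.04% in SIV PT. AT5G27870, for example, had 1118 in SIV PT, against 54230 after 0.5 h and 47740 after 4 h in medium and 53876 in dry pollen. Over the 929 rising probe sets the median mean signal was 181 in 0.5 h PT and 399 in 4 h PT, and over the 642 falling ones 6628 in 0.5 h PT and 5030 in 4 h PT.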

How the data were processed

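The deposited values are intensity signals per probe set on a linear scale, made by the authors with GCOS (named in the submitters' processing notes, with no version in the sources read) and scaled to a common trimmed mean. No further normalization between arrays was applied. After 64 control probe sets were left out, 22746 were fitted as log2(signal + 64) with limma 3.58.1 (R 4.3.3) and 1 mean for each of the 4 conditions (11 residual and 3.97 prior degrees of freedom) and no replicate block. The limits, B above 3 and at least 3-fold, are those of the study's methods. Tables were made in Python with pandas, and exact permutation tests in scipy. The fit was first run on simulated arrays with independent noise and known changes, as a check of the code. Those arrays held no difference in RNA input or labelling between the conditions, so they say nothing about such effects.

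Gene names came from the platform annotation (13348 probe sets) or the study's supplementary tables (1949), with current symbols from RefSeq (TAIR10.1). Another 576 matched several genes, 145 differed between sources and 6728 had no name. The rule for named genes took the 15 largest changes each way with 1 named gene and up to 6 changed members of each list, or 1 where none changed, plus members at the ends of a list. The members and lists were chosen with earlier results of these data known. Alternatives were other offsets (16 and 256), quantile normalization, median centring, a filter at a mean signal of 256, a fit of the 7 arrays, a variance trend, a replicate block, adjusted p under 0.05 in place of B, and leaving out each array. The number of arrays limits precision. No sequences were analysed here.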

Additional observations from a re-analysis of the deposited data

Results flagged for a closer look

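In groups of 4 arrays, a single array far from the other 3 was looked for in the dry pollen values of 168 quantities (named probe sets, array measures and list sums). SIV PT, with 3 arrays, was not tested. In 17 of the 168 the gap to the nearest array divided by the range passed the 95% limit, and chance gives about 1 in 20 groups.

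Dry pollen replicate 4 stood apart upward, at low signals, in AT3G19940 (0.888), CHX9 (0.926), CHX4 (0.836), AMT1;4 (0.922) and HSP17.6II (0.84), and at a moderate signal in XIE (0.835, 1061 against 882 to 911). It stood apart downward in AT2G15880 (0.848, 28247 against 48578 to 52211) and in the summed signal of the vegetative cell list (0.852). Replicate 2 stood apart upward in SUC9 (0.839) and JAZ1 (0.91, 126 against 20.9 to 30.4) and downward in ROPGEF13 (0.945, 39.6 against 195 to 204). Replicate 1 stood apart upward in HSP17.4 (0.88), AT5G26250 (0.852) and ANX1 (0.859, 13642 against 10808 to 11207). Replicate 3 stood apart upward in AT3G07820 (0.883) and downward in AT2G21480 (0.924, 13496 against 16614 to 16869) and in 1 probe set of XPL1 (0.945, 119 against 158 to 161). No omission of a dry pollen array changed the call of any of these genes.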

How the results depend on the processing

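The counts of 929 rises and 642 falls stayed within 1.5 times their value under all 16 alternatives, at 660 to 1222 rises and 501 to 724 falls. Leaving out 1 array gave 748 to 861 rises and 597 to 637 falls. The 102 calls over the gene lists were 94 to 101 and the 129 over the named probe sets 123 to 128 with 1 array left out. Replicate numbers did not pair the conditions: deviations from the group means of same-numbered arrays correlated at −0.005, 0.006 and −0.002. The numbers are those of the sample titles, and the study's own signal table seems to number the SIV PT arrays otherwise, which would change this check and the block. With the replicate number as a block there were 880 rises and 636 falls, and among the named probe sets NDB2 and MYB77 did not pass. Of the 129 named probe sets that passed, 113 kept their call under every alternative that tested them, and quantile normalization changed the most calls of named probe sets, 17. SIV PT arrays held on average 868 more probe sets at a log2 signal of at least 8 than dry pollen arrays (815 to 943 with 1 array left out). At a limit of 7 the difference turned to −304, with overlapping groups, and after quantile normalization it was 0, since that method gives all arrays the same distribution. The share of the 100 strongest was 5.06 percentage points smaller in SIV PT (a difference of −5.59 to −4.61 with 1 array left out) and differed by 0 after quantile normalization for the same reason. The GAPDH ratio differed by 6.80 (6.22 to 7.78 with 1 array left out, an alternative added after seeing the data). Signals under about 64 have no reliable order.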

Other observations

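The genes of these paragraphs were chosen after their values had been seen, and they stand for no gene group. The kinase CIPK15, a partner of calcineurin B-like calcium sensors, had 27728 ± 5814 in SIV PT and 479 ± 64.5 in dry pollen (mean signal ± SD, n = 3 and 4 arrays), and CIPK18 had 13028 ± 575 in SIV PT and 138 ± 81.8 in dry pollen. RBK1, a kinase that binds ROP GTPases, rose by 6.14 and AT5G22400, described as a GTPase activating protein for them, by 6.27. GGT1, a gamma-glutamyl transpeptidase that breaks down glutathione, rose by 5.55, AT5G26220, a ChaC-like gene, by 6.08, and APR2, an enzyme of sulfate reduction, by 5.81. The E3 ubiquitin ligase PUB23 rose by 5.84 and BAG6, a co-chaperone, by 6.46. PATL1 (patellin), NET2B (an actin-binding protein), the tetraspanin TET16 and the transporter ABCB9 rose by 6.41, 6.52, 6.05 and 5.97. AGP15, an arabinogalactan protein, read 22274, 22257 and 21239 in SIV PT, against 166, 253, 323 and 199 in dry pollen, and the subtilase AT5G45650 rose by 6.08.

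Against the falls of its list, the pectin methylesterase gene AT5G49180 read 18478, 19079 and 12358 in SIV PT, against 162, 270, 330 and 253 in dry pollen, and rose by 5.72 (SE 0.31, limma adjusted p = 2.42e-09). Among other falls, the Rab GTPase gene RABA1h (AT2G33870) had 450 ± 118 in SIV PT and 8699 ± 743 in dry pollen, and the glutaredoxin CXIP2 and the sulfur transfer gene SUFE2, both of iron-sulfur biology, fell by 4.08 and 3.87.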
